A study of Mus musculus with 6 samples.

Results

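The transcripts described here lie in the genes of 4 growth-linked long non-coding RNAs (lncRNAs), Gas5, Snhg10, Pvt1 and Dleu2. A transcript was taken when its interval on the mouse genome build GRCm38 overlapped the body of one of these genes in the GENCODE M21 annotation more than that of any other gene. This gave 1 transcript for each gene, 4 of the 3093 in the deposited table, and counting any overlap with the 4 genes also gave 4. The study sequenced lncRNA from pancreatic islets of C57BL/6 mice, small endocrine organs rich in insulin-producing beta cells. By their labels, 3 libraries came from mice after 8 weeks on normal chow (NCD) and 3 from mice after 8 weeks on the diet that the labels spell high-fed and abbreviate HFD, the usual short form of high-fat diet. No genetic change is labelled in either group, and the db/db mice of the series title were not analysed here. The table has 1 value per diet in FPKM, a fragment number scaled to transcript length and library size, so no value below has a standard deviation or a test across mice.

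These 4 genes are known from growth control. Gas5, growth arrest-specific 5, hosts small nucleolar RNAs (snoRNAs) in its introns; its spliced RNA is broken down in growing cells, builds up when growth stops, and can bind the glucocorticoid receptor. Snhg10 is another small RNA host, with the Cajal body RNA Scarna13 in its intron, a kind of RNA that guides modification of spliceosomal RNAs. Pvt1 lies downstream of the growth regulator Myc, in a region where viral insertions and chromosome breaks occur in tumours, and Dleu2 is the primary transcript of the microRNAs miR-15a and miR-16-1, which repress cell cycle and survival genes.

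The 4 transcripts relate to their genes in different ways, and 2 of them cover no exon of the gene they are named after. The Gas5 transcript, at chromosome 1: 161034622 to 161038539, spans 3918 bases and 95.1% of the gene body. Exons of Gas5, pooled over its 25 annotated transcripts, cover 94.7% of it, and its ends come closest to those of the annotated isoform Gas5-217, which begins 15 bases upstream at 161034607 and ends at the same base. The left end also reaches 228 bases into Zbtb37, a zinc-finger protein gene on the opposite strand, including an exon of it, so without strand reads of both genes cannot be told apart there. The Snhg10 transcript, at chromosome 12: 105030557 to 105032275, spans 1719 bases and 99.8% of the gene. It covers both exons of Snhg10 and the intron between them, and its right end lies 2 bases from the annotated start of Snhg10-202 and 413 bases from the start of Glrx5, a glutaredoxin gene read in the other direction.

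The Pvt1 transcript, at chromosome 15: 62115199 to 62115622, is a 424-base interval wholly in an intron and 0.125% of the length of the gene. The nearest Pvt1 exon ends 7526 bases to its left and the next begins 33616 bases to its right. The Dleu2 transcript, at chromosome 14: 61648936 to 61665119, spans 16184 bases of a Dleu2 intron, with the nearest Dleu2 exon 113 bases away. It lies over Gm27017, a long intergenic non-coding RNA gene on the opposite strand, and begins 14 bases before that gene does. All 352 bases of the first exon of Gm27017 are inside the interval, while its other exons, 226 and 78 bases long, lie past the right end. The overlap is 16184 bases with Dleu2 and 16170 with Gm27017, so a margin of 14 bases put the interval under Dleu2, and it is called the Dleu2-locus transcript below. The table gives no strand.

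**Figure D1:**
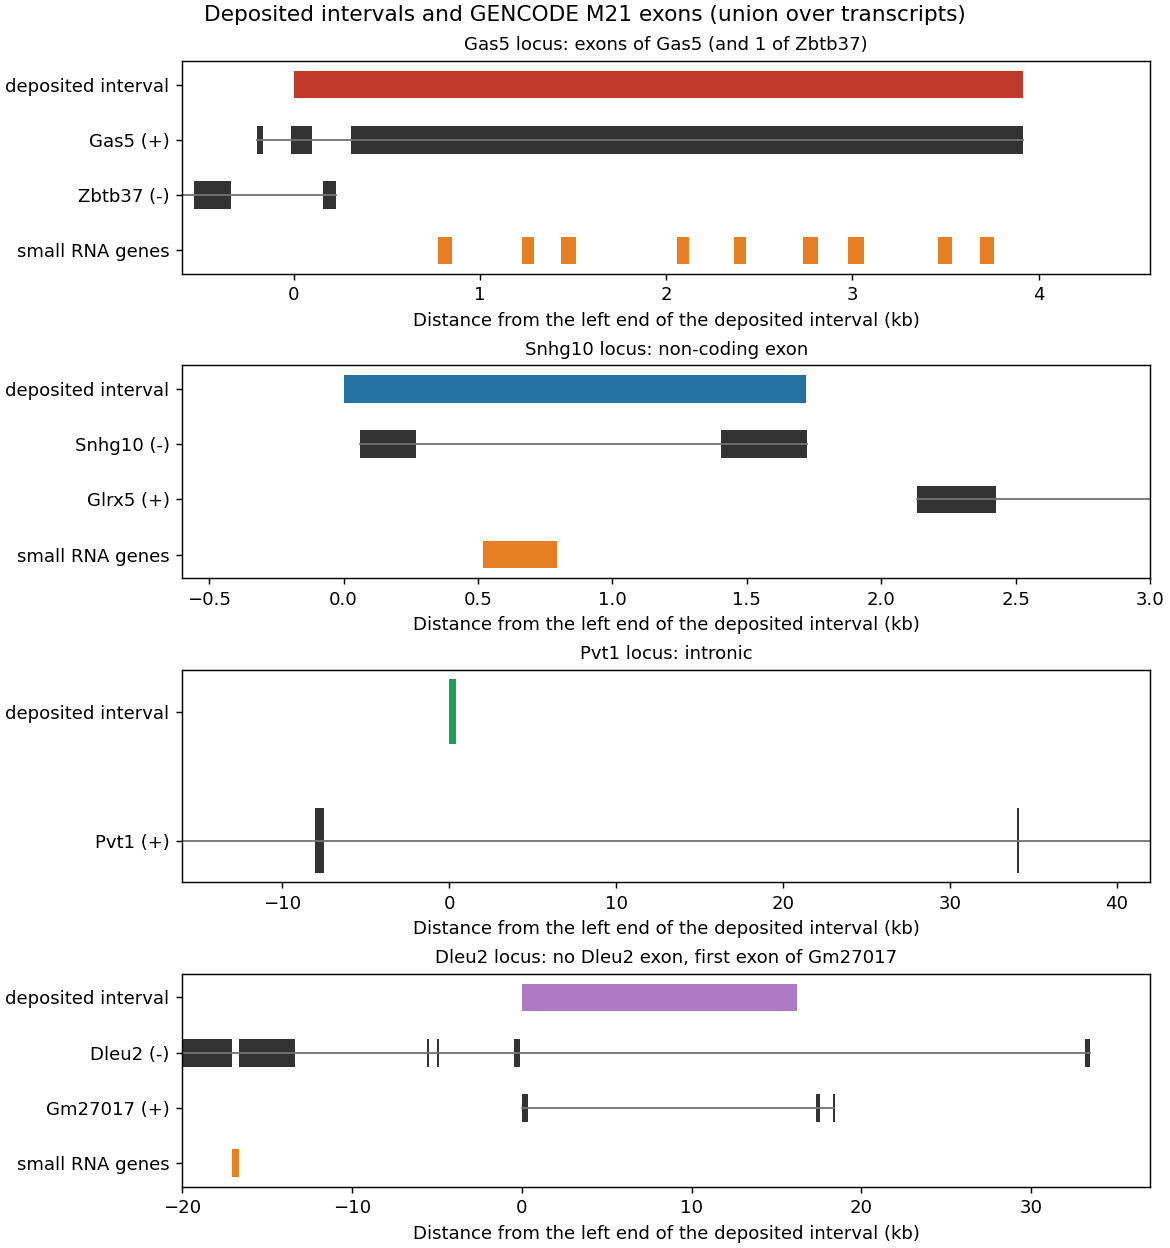
Each panel shows 1 deposited interval (coloured bar), the exons of its gene and of the overlapping or adjacent gene (dark bars, pooled over GENCODE M21 transcripts, strand in brackets) and small RNA genes (orange), against the distance from the interval's left end in kb. The Gas5 and Snhg10 intervals cover exons of their genes, the Pvt1 interval lies between exons, and the Dleu2-locus interval covers the first exon of Gm27017 and none of Dleu2.

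Because an end of the Gas5 interval lies 15 bases from an annotated start and one of the Snhg10 interval 2 bases from one, the RefSeq start windows (GRCm38.p6, 250 bases before to 50 after a start) are printed for them, with capitals marking the bases inside the deposited interval. RefSeq gives Gas5 a pair of start windows, and the left end of the interval falls in the upstream one, chr1:161034351-161034650 on the plus strand, at base 272 of 300. The other Gas5 window, chr1:161034916-161035215, lies wholly inside the interval, has 62% G and C, and is not printed. The Snhg10 window is chr12:105032230-105032529 on the minus strand, and the interval takes up its last 46 bases.
Gas5 upstream start: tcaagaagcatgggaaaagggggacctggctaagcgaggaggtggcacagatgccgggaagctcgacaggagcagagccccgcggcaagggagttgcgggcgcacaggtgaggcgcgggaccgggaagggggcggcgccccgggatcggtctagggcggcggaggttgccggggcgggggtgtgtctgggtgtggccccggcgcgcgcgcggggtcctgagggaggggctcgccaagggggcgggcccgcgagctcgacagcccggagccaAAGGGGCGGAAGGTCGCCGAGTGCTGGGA
Snhg10 start: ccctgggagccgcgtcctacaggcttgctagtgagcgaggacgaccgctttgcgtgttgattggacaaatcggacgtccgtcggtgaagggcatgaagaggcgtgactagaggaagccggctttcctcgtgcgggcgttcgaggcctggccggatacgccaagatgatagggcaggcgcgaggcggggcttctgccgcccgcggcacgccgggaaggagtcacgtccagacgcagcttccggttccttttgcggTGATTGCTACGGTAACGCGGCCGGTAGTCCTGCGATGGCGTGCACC
The printed windows are rich in G and C, with 73.7% in the upstream Gas5 window and 64.7% in the Snhg10 window, against a median of 52.7% over 32851 windows. The letters GGGCGG, on either strand, were found in both, and in 35.7% of all windows. TATAAA was found in neither, and in 13.6% of all windows, while CCAAT was found in the Snhg10 window and in 37.4% of all windows. Start windows were matched for 3 of the 4 genes, and that of Dleu2 lies outside its deposited interval.

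The small RNAs that these genes carry are shown with their place inside or outside the intervals. Whether they contributed to any FPKM value was not tested. The Gas5 interval holds 10 annotated snoRNA entries of 60 to 84 bases, 2 of which are overlapping versions of Snord80. SnoRNAs of the C/D class guide ribose methylation and are marked by a C box near the start and a D box near the end. The letters TGATGA, a form of the C box, were found on the sense strand of 8 of the 10 entries and CTGA, the D box, in all 10, against 74.3% and 93.9% of the 343 GENCODE snoRNAs of 60 to 90 bases. In the GENCODE sequences of Snord47 (chr1:161038082-161038158), Snord78 (chr1:161036984-161037049) and Snord80 (chr1:161037601-161037681), all on the plus strand, capitals mark the first TGATGA and the last CTGA; Snord78 has no exact TGATGA.
Snord47: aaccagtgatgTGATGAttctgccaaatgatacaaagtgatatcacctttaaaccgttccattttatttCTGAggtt
Snord78: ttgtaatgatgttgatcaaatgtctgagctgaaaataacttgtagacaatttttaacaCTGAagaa
Snord80: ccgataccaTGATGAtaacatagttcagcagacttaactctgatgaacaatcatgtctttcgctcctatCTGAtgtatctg

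The Snhg10 interval holds Scarna13 and, inside Scarna13, the microRNA gene Mir3069. The miR-15a and miR-16-1 genes of Dleu2, in contrast, lie 16826 and 16964 bases to the left of the Dleu2-locus interval, so that interval does not include the microRNA precursors. In the mature RefSeq sequences, all read from the minus strand, capitals mark the seed, bases 2 to 8. The miR-15a-5p and miR-16-5p seeds are the same, and the miR-3069 arms have different seeds.
mmu-miR-15a-5p: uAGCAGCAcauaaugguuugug
mmu-miR-16-5p: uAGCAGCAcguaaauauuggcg
mmu-miR-3069-5p: uUGGCAGUcaagauauuguuuagc
mmu-miR-3069-3p: uUGGACACuaaguacugccaca
The first 120 bases of the Gm27017 exon in the Dleu2-locus interval, chr14:61648950-61649069 on the plus strand, are printed without capitals since all of them lie in the interval.
Gm27017 exon start: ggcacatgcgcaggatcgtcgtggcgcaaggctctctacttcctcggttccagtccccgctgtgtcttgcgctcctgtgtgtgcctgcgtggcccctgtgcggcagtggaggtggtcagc

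The question of the study's design is how islet RNA differs between the diets. As deposited, all 4 transcripts had a lower FPKM in HFD than in NCD, as had 80.0% of all 3093 transcripts; after centring on the table's median, which puts its middle at 0 by construction, 3 of the 4 were below 0. The median log2 ratio of the 4, HFD over NCD with 0.1 FPKM added to each, was -1.21, beside -0.82 for the whole table. At least 2-fold lower in HFD were 2 of the 4 and 41.9% of the table, and at least 2-fold higher were 0 of the 4 and 6.27% of the table. Of the whole table, 1297 were at least 2-fold lower and 194 at least 2-fold higher as deposited, and 464 and 493 after centring. With 4 transcripts these shares show nothing particular to them. Against the table's median the Gas5 and Pvt1 transcripts lie below the middle of the table, the Dleu2-locus transcript near it, and the Snhg10 transcript above it.

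**Figure D2:**
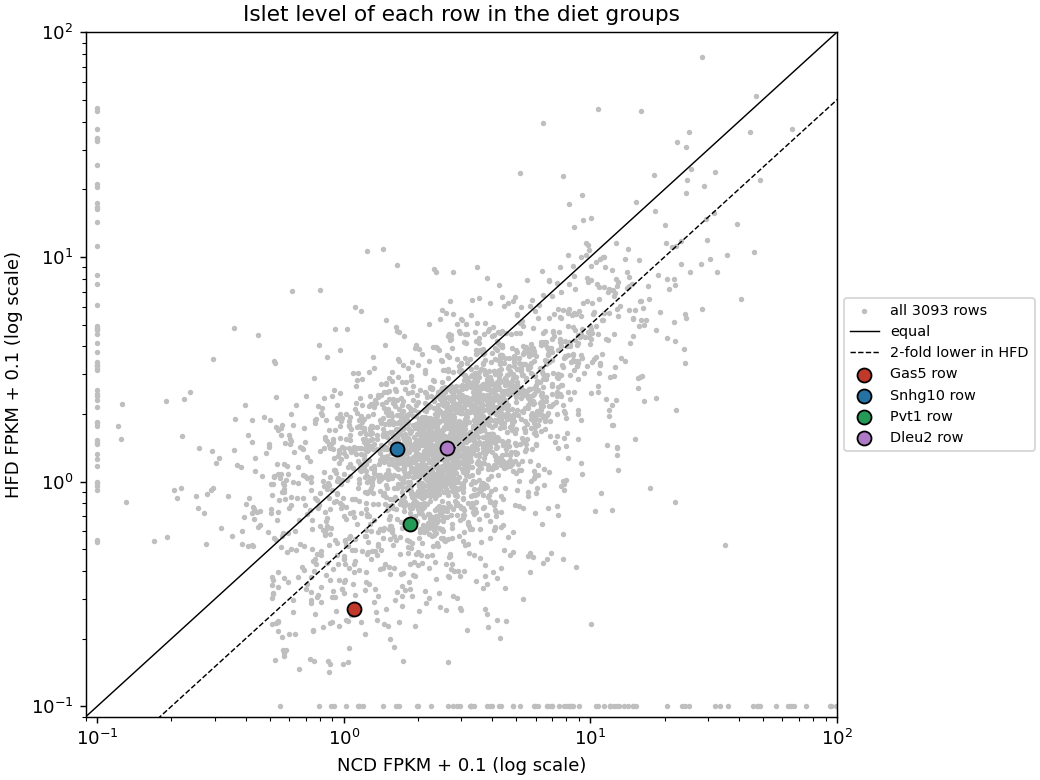
The level of every transcript in NCD (horizontal) and HFD (vertical) is plotted as FPKM + 0.1 on log axes, 1 point per transcript and with 13 transcripts above the plotted range. The Gas5 and Pvt1 points lie under the 2-fold line, the Dleu2-locus point just above it, and the Snhg10 point close to the line of equal levels.

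Among the snoRNA hosts, the Gas5 transcript was at 1.00 FPKM in NCD islets against 0.172 in HFD, a 5.84-fold lower value in HFD. The log2 ratio was -2.02, and 354 of the 3093 transcripts (11.4%) had a lower one. It was the lowest of the 4 in both diets: 13.5% of all transcripts were lower than it in NCD and 4.49% in HFD. Since the interval touches the Zbtb37 exon, its position class is that of coding exons. The 353 transcripts of this class had a median log2 ratio of -0.41, and 16 of these (4.53%) had a lower ratio than Gas5. Most of the interval, however, is exon of the non-coding gene Gas5. Of the 193 transcripts over non-coding exons, 13 were at least 4-fold lower in HFD, as the Gas5 transcript was. In the whole table, 365 of 3093 (11.8%) were. The table holds no other transcript over Gas5, so these values describe 1 deposited transcript, not the whole output of the gene. Its left end is near the upstream start, and the other start window lies inside it.

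The precision of the Gas5 values depends on how long the transcript is once spliced, which the table does not give. Low values of short transcripts fell mostly on whole fragments, from which totals of 68.0 (NCD) and 78.5 (HFD) in units of 1e6 fragments were estimated. If the transcript has the exons of Gas5-217 within its own ends, 415 bases, its values stand for about 8.01 fragments in NCD and 1.77 in HFD. The latter is not within 0.15 of a whole fragment, as the low HFD values checked were, and 8 and 2 fragments were used for the interval. The exact 95% counting interval of its log2 ratio, without added FPKM, was then -5.64 to -0.04. If it is unspliced, the values stand for 247 and 49.0 fragments and the interval was -3.02 to -2.10. The table's median without added FPKM, -0.86 over the 2964 transcripts above 0 in both diets, is inside the first interval and outside the second. Whether the Gas5 transcript differs from the table beyond counting error thus rests on its unknown structure. The first interval uses a length at which the HFD value missed a whole fragment, and neither interval covers variation over mice.

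The Snhg10 transcript was at 1.54 FPKM in NCD islets against 1.30 in HFD. The HFD value was 0.844 times the NCD value, a log2 ratio of -0.23, and 2288 transcripts (74.0%) had a lower ratio. Its rank by level went from above 23.6% of all transcripts in NCD to above 44.8% in HFD, the only gain of rank among the 4. Among the 193 transcripts over non-coding exons, whose median log2 ratio was -0.44, 112 had a lower ratio. Taken as unspliced, its values stand for about 149 and 147 fragments, with a counting interval on the log2 ratio of -0.58 to 0.10. With the exons of Snhg10-202 carried on to the transcript's own ends, the values stand for 30.0 and 30.8 fragments. The length is then 585 bases, which includes bases past the annotated gene end, against 527 in the isoform. The counting interval for that length is -1.01 to 0.54. Both intervals include 0, so the difference between the diet columns was within counting error. Neither interval covers variation over mice. The table's median of -0.86 lies outside the first and inside the second.

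Between these hosts, Gas5 was at 0.651 times the Snhg10 level in NCD and at 0.132 times in HFD. The log2 ratios differed by -1.79, the widest gap of the 6 pairs among the 4 transcripts. Of the 45 snoRNA host genes in the list used here, 3 held a transcript, the other being Taf1d, which encodes a subunit of an RNA polymerase I transcription factor complex. Its transcript, which touches a coding exon, was at 3.13 FPKM in NCD islets against 1.95 in HFD, a log2 ratio of -0.66. Lower in HFD were 3 of 3, beside 80.0% of the table, and at least 2-fold lower 1 of 3, Gas5, beside 41.9%; so few transcripts show nothing particular to snoRNA hosts.

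In the Myc and Pvt1 region, the Pvt1 intron transcript was at 1.75 FPKM in NCD islets against 0.546 in HFD, 3.20-fold lower in HFD. The log2 ratio was -1.52, and 671 transcripts (21.7%) had a lower one. Of the 2054 intronic transcripts, with a median log2 ratio of -0.98, 522 (25.4%) were lower still. The 198 intronic transcripts of 400 to 450 bases, like Pvt1 in length, had a median of -1.23, and 115 of them (58.1%) were at least 2-fold lower in HFD. The Pvt1 transcript is thus inside the middle range of intronic intervals of its size, whose quartiles were -1.91 and -0.64.

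As an unspliced 424-base transcript, the Pvt1 values stand for about 15 fragments in NCD and 6 in HFD. The exact counting interval on the log2 ratio without added FPKM, -3.34 to -0.24, excludes 0 but includes the table's median of -0.86. By counting error, the only error that this interval covers, the Pvt1 ratio could therefore not be told from that of the typical transcript. The nearest other transcript on the chromosome lay 126 kb away in an intron of Myc, a transcription factor gene that drives cell growth. At chromosome 15: 61988515 to 61988906, it was at 3.91 FPKM in NCD islets against 1.52 in HFD, a log2 ratio of -1.30. As deposited, both transcripts of this region were at least 2-fold lower in HFD, as were 48.8% of all intronic transcripts, and relative to the table's median neither was (log2 ratios of -0.70 for Pvt1 and -0.48 for Myc). Both are short intronic intervals that do not measure the spliced RNA of Pvt1 or Myc.

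At the Dleu2 locus, the transcript over Gm27017 was at 2.53 FPKM in NCD islets against 1.31 in HFD, 1.93-fold lower in HFD. It was the most abundant of the 4 in NCD, above 49.9% of all transcripts, and in HFD it was at the level of Snhg10, which was 0.992 times as high. The log2 ratio of -0.90 lay close to the table's median, with 1449 transcripts (46.8%) below it. Among the transcripts over non-coding exons, 58 of 193 (30.1%) had a lower ratio. The splicing of this 16184-base interval is not known, so no fragment number was estimated for it. Of the 24 listed genes at or near the 4 loci or on their chromosomes, 2 held a transcript: Myc, and the tumour suppressor Rb1 on the chromosome of Dleu2, with 5.75 FPKM in NCD islets against 2.11 in HFD over a coding exon (log2 ratio -1.41).

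**Figure D3:**
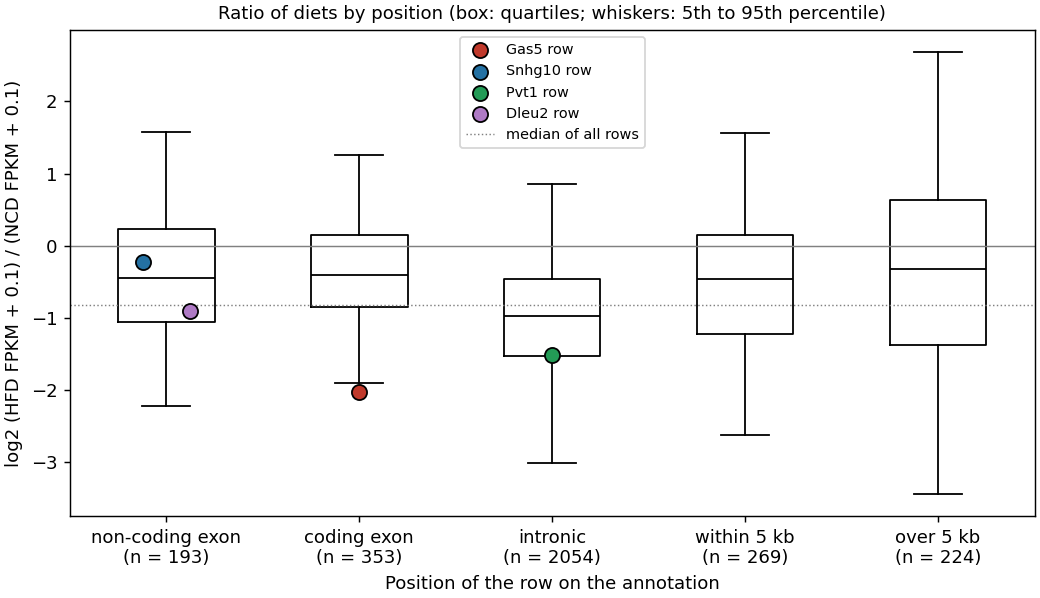
The log2 ratio of diets is plotted by where a transcript lies (boxes, quartiles with the median; whiskers, 5th to 95th percentile), with a dot for each of the 4 transcripts. Gas5 (-2.02) lies past the lower whisker of coding exons, a class it has only through the Zbtb37 exon. Pvt1 (-1.52) lies at the lower quartile of intronic transcripts. The Dleu2-locus transcript (-0.90) and Snhg10 (-0.23) lie on either side of the median of -0.44 for non-coding exons. The former has this class only through the Gm27017 exon.

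The 4 transcripts ranked Dleu2 locus, Pvt1, Snhg10 and Gas5 from high to low in NCD, over a 2.52-fold range. In HFD the order was Dleu2 locus, Snhg10, Pvt1 and Gas5, over a 7.64-fold range. The Dleu2-locus and Snhg10 levels in HFD were nearly equal, and no spread over mice is given by which any neighbours in these orders could be told apart.

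Other lncRNAs linked to growth or cancer give a wider frame. Of 42 listed genes, 7 held 13 transcripts, 11 lower and 2 higher in HFD, with 6 at least 2-fold lower and 2 at least 2-fold higher (median log2 ratio -0.90). Of all 3093 transcripts, 80.0% were lower, 41.9% at least 2-fold lower and 6.27% at least 2-fold higher, with a median of -0.82. Of the 13, 4 are the transcripts described above. The highest of the others lay in introns of Mir99ahg, a microRNA host gene, which held 7 of the 13 and both higher ones: 1 transcript was at 3.27 FPKM in NCD islets against 1.36 in HFD, another at 0.798 and 2.30. The transcript over Jpx, an lncRNA gene that activates Xist, was at 1.81 and 0.945 FPKM.

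Growth pathway genes, a list of 22 such as cyclins, their inhibitors and survival factors, held 5 transcripts in 2 genes, 4 lower and 1 higher in HFD, beside 80.0% lower in the table, with a median log2 ratio of -0.74 beside the table's -0.82. In introns of Bcl2, the survival gene repressed by miR-15a and miR-16, there were 4, of which the highest was at 6.05 FPKM in NCD islets against 1.69 in HFD and another at 2.04 and 2.40. The intronic transcript of Ccnd3, a D-type cyclin gene, was at 2.53 and 0.799 FPKM (log2 ratio -1.55). Intervals in these introns give no level of the mRNAs.

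The transcripts in other named genes whose pair of levels came closest to each of the 4, by distance on the log2 scale over the 2 diet values, were mostly intronic. So were 2054 of the 3093 in the whole table. For Gas5 they lay in Lins1 (0.921 FPKM in NCD islets against 0.143 in HFD) and Sox6 (0.937 and 0.140). For Snhg10 they lay in Ebf1 (1.55 and 1.34) and Xkr6 (1.60 and 1.29). The closest to Pvt1 lay in Asic2 (1.74 and 0.552) and Orc3 (1.69 and 0.544). Those nearest the Dleu2 locus were in Exoc4 (2.48 and 1.33), over a coding exon, and Sfxn5 (2.45 and 1.31). With 2 values per transcript, such likeness is only of level.

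The tissue could not be checked by its markers in this lncRNA table. Of 31 marker genes of islet, acinar, duct, endothelial, stromal and immune cells, 1 held a transcript, the epithelial adhesion gene Epcam. It was an intronic interval at 21.8 FPKM in NCD islets against 5.01 in HFD (log2 ratio -2.10), so 0 transcripts covered an exon of a marker. Whether the cell makeup of the islets differed between the diets was not tested, and fewer cells of a type and less RNA per cell cannot be told apart in such bulk samples.

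The ratios of the 4 transcripts depended on how the diet columns were scaled. Relative to the table's median, the log2 ratios were -1.20 for Gas5, -0.70 for Pvt1, -0.08 for the Dleu2 locus and 0.59 for Snhg10. Snhg10 was thus lower in HFD as deposited and higher after centring, while Gas5 kept a ratio at least 2-fold lower in HFD and Pvt1 did not. The gap between Gas5 and Snhg10, being between transcripts of the same columns, is the same before and after centring.

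**Figure D4:**
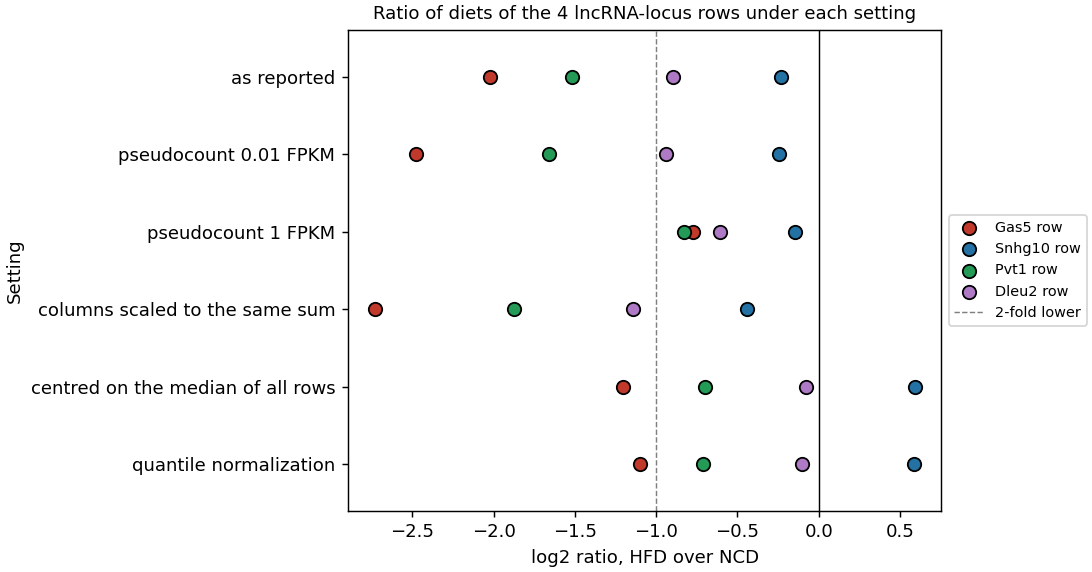
The log2 ratio of HFD over NCD of each of the 4 transcripts (dots) is plotted for the reported setting and 5 alternatives; the dashed line marks a 2-fold lower value in HFD. Gas5 lies between -2.73 and -0.77, Pvt1 between -1.87 and -0.70, and the Dleu2 locus between -1.14 and -0.08. Snhg10 passes from -0.44 to 0.59, crossing 0 after centring and quantile normalization. Where the columns were scaled to the same sum, 0.1 was added after scaling, so its weight changed as well.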

How the data were processed

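Islet RNA was extracted with Trizol and made into Illumina TruSeq libraries, per the labels' protocols. The authors deposited 1 table with an FPKM per transcript for each diet group, per the file headers; how the 3 libraries of a group were combined, and the aligner, assembler and quantifier, are steps not given in the sources used here, and the builds GRCm38 and mm10 come from the submitters' processing notes. The genes, lists and tests were chosen with earlier results of these data known. Every transcript over Gas5, Snhg10, Pvt1 or Dleu2 is named, with the 2 nearest in level in other named genes and up to 4 of the highest in each list; Jpx, Epcam and further Bcl2 and Ccnd3 values were added after they were seen.

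Intervals were placed on GENCODE M21 with Python 3.11.15 (pandas 2.3.3, numpy 2.4.6). Coordinates were read as 1-based: 64 intervals began at an annotated transcript start as written and 2 when shifted by 1 base. Ratios are log2 of (HFD + 0.1) over (NCD + 0.1), which understates the change of low transcripts. A difference was described by a 2-fold rule, since a model over libraries could not be fitted to 1 value per group.

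Depth was sought in transcripts of 300 to 700 bases with under 8 fragments. The total and the fragment length were fitted on a random subset. Outside it, 53 of 62 values in NCD (85.5%) and 126 of 126 in HFD (100%) lay within 0.15 of a whole fragment, a band that takes up 30% of the scale. In the fit to the full set the mean fragment length was 300 bases in NCD and 285 in HFD. On simulated data the fit recovered the total of a single pool of fragments, but not that of a mean over 3 libraries of unequal size. Estimated fragments and their exact binomial intervals assume 1 pool of fragments behind each column, and cover counting error only.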

Additional observations from a re-analysis of the deposited data

How the results depend on the processing

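Only the transcript over Snhg10 changed direction: its log2 ratio was -0.23 as reported, 0.59 after centring on the table's median and 0.58 after quantile normalization, so 1 of the 4 was then higher in HFD and 3 lower. With a pseudocount of 1 FPKM, Gas5 (-0.77) and Pvt1 (-0.83) no longer passed the 2-fold rule, leaving 0 of 4, which follows from the larger pseudocount at such levels. Pvt1 also missed it after centring (-0.70) and quantile normalization (-0.71), leaving 1 of 4, while the Dleu2-locus transcript passed it when the columns were scaled to the same sum (-1.14). A 4-fold rule left 1 of 4 lower in HFD, beside 11.8% of the table. Counting only transcripts that cover an exon of their gene, an alternative chosen after seeing the data, left 2 lower in HFD, 1 of them at least 2-fold. Of all transcripts over non-coding exons, 67.4% were lower and 26.4% at least 2-fold lower. Over coding exons these shares were 69.7% and 21.2%. In the whole table, the 2-fold rule held for 1297 lower and 194 higher transcripts; with a pseudocount of 1 these were 689 and 101, and after centring 464 and 493. A 4-fold rule gave 365 and 90. A minimum span of 400 bases, which leaves fewer transcripts, gave 959 lower and 109 higher by the 2-fold rule. No paired analysis was possible because replicate numbers are not carried by the diet columns, and leaving out a library could not be done either. Depth limits Pvt1, estimated at 15 fragments against 6, and the estimate for Gas5 depends on its unknown splicing.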
